A study of Mus musculus with 12 samples.

Results

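The change in the transcriptome of B16F10 cells after a low dose of 5-aza-2′-deoxycytidine (DAC, decitabine) alone was compared with vehicle control. B16F10 is an established mouse melanoma line. The 6 libraries of this comparison, of 12 in the series, were all libraries that the labels name as control or as DAC, with 3 replicates in each group. Control cells received DMSO, and treated cells received DAC at 25 nM over 72 h with a change of medium during the treatment. No allele, transgene or second agent was used in either group. All cells were seeded at one density, were and were harvested 72 h after the first dose. The methods of the study describe 3 independent biological repeats, and the labels give replicate numbers only. The other 6 libraries, 3 with sulforaphane (SFN) alone and 3 with DAC and SFN together, entered the same statistical model and gave a separate look at DAC in other cultures.

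DAC is a cytidine analog that cells take up, phosphorylate and build into DNA in S phase. There it traps DNA methyltransferases, above all DNMT1, so that methylation is lost over the following divisions, and the trapped protein is also a DNA lesion that can be sensed by p53. In tumor cells DNMT inhibitors are known for both the re-expression of genes with methylated promoters and an interferon response that follows sensing of double-stranded RNA from derepressed repeats.

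Reads were counted per gene, and levels are given in CPM, the counts of a gene per 1e+06 counts of its library, scaled by TMM factors. Between 15880957 and 26056092 reads were counted in the 6 libraries, and 11638 of 24421 listed genes reached 1 CPM in at least 3 of the 12 libraries. All 8 melanocyte markers were present, with summed levels of 24290 to 30160 CPM in control and 23150 to 28110 CPM with DAC. Summed leukocyte markers were at most 2.67 CPM in control and 3.06 CPM with DAC, with 2 of 6 at 0, and endothelial and keratinocyte markers summed to at most 0.319 CPM. Of the 5 fibroblast markers, Lum was at 0 in the 6 libraries and the sum, mostly Col1a1, ran from 19.96 to 320.5 CPM in control and from 25.14 to 366.3 CPM with DAC. Libraries with the same replicate number deviated together from their group means, so the model held a block for the number.

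The response to DAC alone was small, and the 21 genes called in the main fit were all higher. Among the 11638 genes tested, the median log2 fold change was 0.00488, 61.1% of genes had an absolute log2 fold change under 0.1 and 84.5% had one under 0.2. With edgeR's quasi-likelihood test, 21 genes (0.18%) passed a Benjamini-Hochberg adjusted p of 0.05, and all 21 were higher with DAC. Only 4 of them (0.0344% of genes tested) also passed a fold change of 2: Lif, Plscr2, Ccl5 and Cpz. The other 17 rose by less, down to 1.27-fold, and the median fold change of the 21 genes was 1.67. All 21 genes were higher in each of the 3 replicates, whereas 20.5% of all genes tested were higher and 20.7% were lower in all 3. In 13 of the 21 genes all DAC libraries were above all control libraries, and in the other 8 the groups overlapped. Of the 11638 genes tested, 476 had all DAC libraries above all control libraries. At an unadjusted p under 0.05, 700 genes were higher (6.01%) and 470 were lower (4.04%), so that 59.8% of these genes were higher. Scaled by library totals without TMM factors, 828 were higher and 306 lower, or 73% higher.

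**Figure D1:**
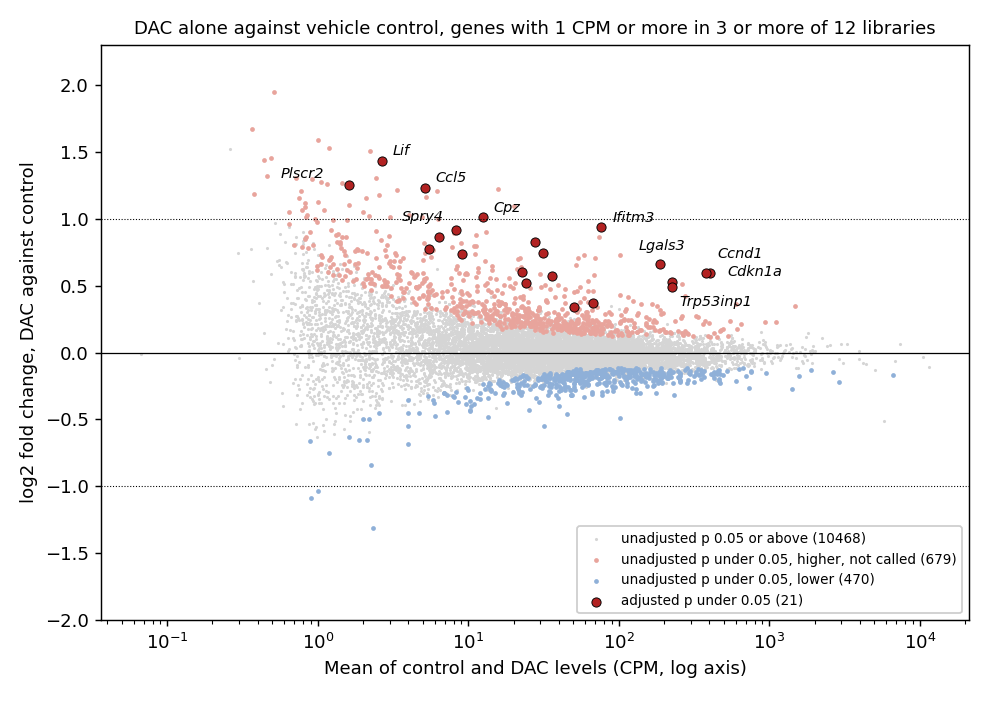
Each point is 1 of the 11638 genes tested, with the mean level of the control and DAC libraries in CPM on a log axis and the log2 fold change of DAC against control on the vertical axis. The 21 genes with an adjusted p under 0.05 are dark red with a black outline and all lie above 0, 4 of them above the dotted line at a 2-fold change.

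The number of genes called changed with the libraries and with the model of the fit. With the 6 libraries of control and DAC alone in the fit, 383 genes were called higher (3.29%) and 279 lower (2.4%), all 21 genes among them with adjusted p of at most 0.0057, whereas without the replicate block 0 genes were called, with 199 higher and 131 lower at an unadjusted p under 0.05. Without 1 library of these groups, the count of 21 became 0 without control replicate 1, 2 without control replicate 2, 11 without DAC replicate 2, and 8 without DAC replicate 3. The 4 genes over 2-fold became 0 without control replicate 1 and 1 without control replicate 2 or DAC replicate 3. The 700 genes higher at an unadjusted p became 395 without control replicate 2 and 454 without DAC replicate 3, and the 470 lower became 297 without control replicate 1, 207 without control replicate 2 and 258 without DAC replicate 3. Libraries outside the comparison moved the count of 21 too: 8 genes were called without SFN replicate 1, 44 without DAC+SFN replicate 1 and 101 without DAC+SFN replicate 3. The median absolute residual per gene was 0.0592 to 0.0744 on the log2 scale in the DAC+SFN libraries, against 0.047 to 0.0643 in control and DAC. In the SFN libraries it was 0.0441 to 0.0488. Whether these residuals account for the changed counts was not tested. None of the 21 genes changed sign in the 6 fits that left out a control or DAC library, and Cpz and Trp53inp1 kept their call in 5 of these. Tmem140, Ctsh, Mest, Plscr2 and Serpinb9b kept it in 0 of 6.

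Among secreted factors, Lif and Ccl5 rose. Lif, an interleukin 6 family cytokine that holds stem cells in an undifferentiated state, lies at chr11:4257568-4272514. Its level was 0.782, 2.32 and 1.18 CPM in control replicates 1 to 3 and 2.24, 6.76 and 2.66 CPM with DAC. It was higher within each replicate, and the groups overlapped because replicate 2 was high in both. The fold change was 2.7 (log2 1.43, SE 0.21, adjusted p = 0.0134), the largest among the 21 genes. Ccl5, a chemokine that draws T cells and monocytes, lies at chr11:83525778-83530518, and its reads could be shared with the overlapping Gm32650 if counting ignored strand. It was at 2.99, 2.15 and 4.16 CPM in control and at 6.04, 6.06 and 9.44 CPM with DAC. The lowest DAC library was above the highest control library, with a fold change of 2.35 (log2 1.23, SE 0.22, adjusted p = 0.0441). Ccl5 was not called by limma voom (adjusted p = 0.0616) or by edgeR's robust fit (adjusted p = 0.0581). It kept its call in 2 of the 6 fits that left out a control or DAC library.

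The promoter of Lif is shown because it was poor in CpG, the site of DNA methylation, and that of Cpz for contrast. Both are 250 bases before to 50 bases after a RefSeq start on GRCm38.p6 (mm10), 5′ to 3′ along the gene, with each CG in capitals. The ratio of observed to expected CpG was 0.231 for Lif, with 7 CpGs at chr11:4257318-4257617 (+ strand), and 0.505 for Cpz, with 13 CpGs at chr5:35525577-35525876 (- strand).
Lif: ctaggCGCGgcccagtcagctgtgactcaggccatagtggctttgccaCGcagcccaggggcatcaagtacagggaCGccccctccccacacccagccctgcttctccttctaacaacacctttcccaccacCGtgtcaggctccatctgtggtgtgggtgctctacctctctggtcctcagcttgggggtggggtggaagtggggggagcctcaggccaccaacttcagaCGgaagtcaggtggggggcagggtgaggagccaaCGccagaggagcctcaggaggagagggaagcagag
Cpz: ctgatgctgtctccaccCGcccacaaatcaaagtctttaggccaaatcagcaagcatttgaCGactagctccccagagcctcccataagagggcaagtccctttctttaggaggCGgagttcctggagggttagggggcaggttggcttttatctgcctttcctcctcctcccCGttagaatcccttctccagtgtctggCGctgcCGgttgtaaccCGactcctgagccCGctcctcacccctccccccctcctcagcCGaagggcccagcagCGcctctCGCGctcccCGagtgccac

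Cpz, a secreted metallocarboxypeptidase that binds Wnt proteins, was among the genes with the lowest adjusted p. It lies at chr5:35502218-35525626 and was at 6.35, 9.64 and 8.88 CPM in control and at 13.04, 19.01 and 18.02 CPM with DAC. No DAC library fell into the control range, with a fold change of 2.02 (log2 1.01, SE 0.12, adjusted p = 0.00189). Of 6 metallocarboxypeptidases tested, 2 were higher at an unadjusted p under 0.05 (33.3%, against 6.01% of all genes) and 0 lower. Beside Cpz, the other was Cpe, at 1.18-fold with an adjusted p of 0.156. The median log2 fold change of the 6 was 0.04. Plscr2, of the phospholipid scramblases that move lipids between membrane leaflets, rose 2.38-fold, from 0.782, 1.16 and 0.976 CPM to 1.82, 2.68 and 2.32 CPM (adjusted p = 0.0441). The groups did not overlap, but at these levels a library held few counts. It was the only one of 6 scramblases tested with an unadjusted p under 0.05, and the median of the list was -0.01, which turned positive (0.01) under library totals.

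Ifitm3, an interferon-induced membrane protein that blocks virus entry, rose 1.91-fold (log2 0.94, SE 0.13, adjusted p = 0.0068). Its level was 49.8, 41.0 and 64.9 CPM in control and 90.9, 64.4 and 149 CPM with DAC. DAC replicate 2 fell just under control replicate 3, but each replicate was higher with DAC. Members of the Ifitm family are alike in sequence, so their uniquely aligned reads are uncertain. Tmem140 rose 1.82-fold, from 3.68, 3.44 and 6.47 CPM to 7.70, 5.87 and 10.9 CPM (adjusted p = 0.0358), with the groups overlapping through control replicate 3. Its gene overlaps Cyren.

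**Figure D2:**
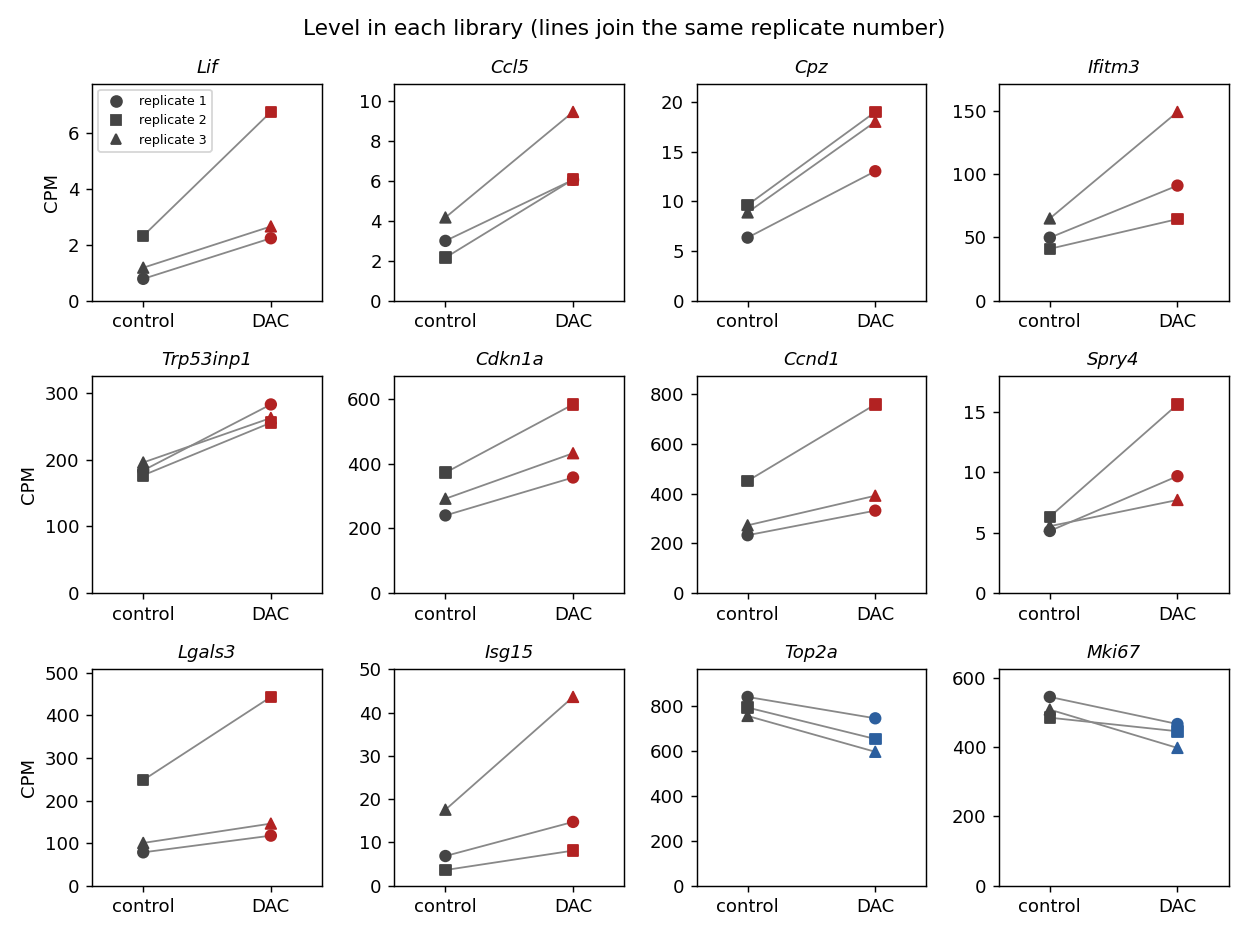
Levels of 12 genes in CPM in the 3 control and 3 DAC libraries, on axes that start at 0, with lines joining the same replicate number. The 10 genes with DAC libraries drawn in red were higher with DAC in all 3 replicates, and Top2a and Mki67, with DAC libraries in blue, were lower in all 3; Isg15, Top2a and Mki67 did not pass the adjusted p of 0.05.

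Interferon-stimulated genes, which STAT factors switch on after interferon binds its receptor, had the highest share of genes higher with DAC among the lists. Of 45 listed genes, 43 were tested, 38 were higher at an unadjusted p under 0.05 (88.4%, against 6.01% of all genes tested) and 0 were lower. The median log2 fold change was 0.65 against 0.00488 over all genes, and 42 of 43 were above 0. Without the replicate block the 38 became 3, and with only the 6 libraries and no block they became 0. Ifitm3, which was called, was not in this list. No member of the list passed an adjusted p of 0.05 in the fit of 12 libraries, where the lowest was 0.0514 for Bst2. With DESeq2 6 passed and with limma voom 1, while 35 were higher at that threshold in the fit of the 6 libraries. When the filter was lowered to 10 counts over the 12 libraries, 49 of 14516 genes were called (0.338%), 8 of them in this list. The members share regulators and are not independent of each other.

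Basal levels of the interferon-stimulated genes followed the replicate number in both groups. The summed level of the tested members was 1040, 628 and 1527 CPM in control replicates 1 to 3 and 1449, 763.8 and 2468 CPM with DAC. Replicate 2 was lowest and replicate 3 highest in both groups, and DAC replicate 2 was below control replicates 1 and 3. The median log2 difference over the list was 0.522, 0.418 and 0.827 in replicates 1, 2 and 3. In all 3 replicates 36 of 43 were higher, but in 0 of 43 were the DAC libraries all above the control libraries, against 476 of all 11638 genes. Without DAC replicate 3, 13 of the 43 were higher at an unadjusted p under 0.05.

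Isg15, a ubiquitin-like protein attached to other proteins under interferon, was at 6.85, 3.61 and 17.6 CPM in control and 14.7, 8.10 and 43.6 CPM with DAC. It more than doubled in each replicate, but the groups overlapped (fold 2.33, SE of the log2 value 0.25, adjusted p = 0.059). Bst2 (tetherin), which holds budding virus at the membrane, was at 46.3, 26.6 and 78.0 CPM in control and 89.8, 33.0 and 171 CPM with DAC (fold 1.82). Ifit1, which binds viral RNA without a host cap, was at 12.1, 6.37 and 19.21 CPM in control and 22.4, 11.7 and 48.3 CPM with DAC (fold 2.14, adjusted p = 0.054). Oas1a, which makes the activator of RNase L, was at 4.92, 2.28 and 9.50 CPM in control and 9.36, 3.51 and 18.7 CPM with DAC (fold 1.86). All 4 kept the order of replicates, lowest in replicate 2 and highest in replicate 3. Ddx60, a helicase, had a fold of 2.47 and Igtp, an interferon-inducible GTPase, one of 2. The members with an unadjusted p of 0.05 or above were Gbp2, Ifit2, Cmpk2, Mx1 and Herc6, with log2 fold changes of 0.32, 0.08, 0.21, 0.06 and -0.01. Herc6 turned positive under library totals or upper quartile factors. Oas1a and Oas1g, and Ifit3 and Ifit3b, are near copies whose reads the authors' counting could split.

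Windows of the promoters of Ifitm3 and of 6 interferon-stimulated genes are shown because each holds the core of an interferon-stimulated response element. The motif searched was AAANNGAAA on both strands, and it occurred in 12.1% of the promoters of 27025 genes with a RefSeq start (250 bases before to 50 bases after it). Matches are in capitals, with runs of T marking the other strand and overlapping matches merged, on GRCm38.p6, 5′ to 3′ along the gene. The windows are at chr7:141010708-141010749 for Ifitm3, chr4:156200867-156200903 for Isg15, chr5:120907522-120907552 for Oas1a and chr8:71537579-71537609 for Bst2 (- strand), and at chr19:34640777-34640820 for Ifit1, chr8:61928027-61928085 for Ddx60 and chr11:58199515-58199539 for Igtp (+ strand). Only 35 of the 45 genes of the list had a promoter in the RefSeq table, so a share over the list is void.
Ifitm3: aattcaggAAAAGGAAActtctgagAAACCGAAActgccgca
Isg15: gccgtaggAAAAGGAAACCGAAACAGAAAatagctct
Ifit1: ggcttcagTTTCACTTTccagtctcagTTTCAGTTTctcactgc
Oas1a: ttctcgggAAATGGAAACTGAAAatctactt
Bst2: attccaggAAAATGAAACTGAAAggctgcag
Ddx60: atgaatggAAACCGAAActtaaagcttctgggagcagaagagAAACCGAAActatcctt
Igtp: aggaactgAAACTGAAAgctgttcg

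Sensors and transducers upstream of interferon gave a lower share than the interferon-stimulated genes, a difference that was not tested. Of 14 tested genes of double-stranded RNA and DNA sensing, 6 were higher at an unadjusted p under 0.05 and 0 lower. The share higher was 42.9%, against 6.01% of all genes, and the median log2 fold change was 0.16. Ddx58 (RIG-I), a sensor of RNA with a 5′ triphosphate, was at 39.1, 22.2 and 68.4 CPM in control and 66.4, 30.2 and 125 CPM with DAC (fold 1.66, adjusted p = 0.054). Irf7, the interferon-inducible transcription factor for type I interferons, was at 2.48, 0.731 and 5.96 CPM in control and 3.85, 1.59 and 16.6 CPM with DAC (fold 2.23, adjusted p = 0.088). Both showed the replicate order of the interferon-stimulated genes. The other 4 were Ifih1 (MDA5), Dhx58, Adar and Tlr3, with log2 fold changes of 0.64, 0.79, 0.22 and 0.22. Irf3, the factor that acts before interferon is made, was at log2 0.05 (unadjusted p = 0.625). The interferon genes themselves were near silence: Ifnb1 had 0, 0 and 1 counts in control and 0, 0 and 4 with DAC, and Ifna4, Ifnl2 and Ifnl3 were listed at 0 in the 6 libraries.

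Antigen presentation by MHC class I, which interferon raises, had no call at the adjusted p with edgeR in the fit of 12 libraries. Of 18 tested genes, 6 were higher (33.3%, against 6.01% of all genes) and 1 lower at an unadjusted p under 0.05, 14 were above 0, and the median log2 fold change was 0.20. DESeq2 called 1 member higher, limma voom 0, and the fit of the 6 libraries 3. Tap1, which carries peptides into the endoplasmic reticulum, was at 6.16, 8.09 and 10.7 CPM in control and 11.5, 11.04 and 18.8 CPM with DAC (fold 1.67, adjusted p = 0.156), with no overlap of the groups. B2m, the shared light chain, was 1.19-fold higher (adjusted p = 0.258), H2-D1 1.2-fold, Tapbp 1.24-fold and Nlrc5, a transactivator of class I genes, 1.66-fold. H2-K1 was at log2 -0.04, with control levels from 14.1 to 59.2 CPM. It was negative under each of the 3 scalings. Calr, a chaperone of class I folding, was the gene that was lower, at log2 -0.13.

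Chemokines and cytokines draw and instruct immune cells. Of 16 chemokines and cytokines tested, 6 were higher at an unadjusted p under 0.05 (37.5%, against 6.01% of all genes) and 0 lower. The median log2 fold change was 0.22. Beside Lif and Ccl5, which rose, Cxcl10, an interferon-inducible chemokine for T cells, was at 8.92, 12.5 and 12.7 CPM in control and 14.8, 14.5 and 23.4 CPM with DAC. Its groups did not overlap (fold 1.53, adjusted p = 0.0666), and with the filter at 10 counts over the 12 libraries its adjusted p was 0.04. Il33, an alarmin of the interleukin 1 family, was at 4.37, 4.26 and 2.72 CPM in control and 4.97, 10.5 and 4.35 CPM with DAC (log2 0.74, adjusted p = 0.117), the difference being largest in replicate 2. Tgfb3 and Csf1 were at log2 0.26 and 0.25. A further 11 genes of the list were of low level and 11 had no fit.

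Targets of p53, which arrest the cycle, repair DNA or start cell death, were also mostly higher. Of 29 listed genes, 25 were tested, 17 were higher at an unadjusted p under 0.05 (68%, against 6.01% of all genes) and 0 lower, and the median log2 fold change was 0.32. Without the replicate block the 17 became 6. Trp53inp1, which promotes p53 activity and autophagy, had the lowest p of all genes. It lies at chr4:11156441-11174379 and was at 184, 177 and 196 CPM in control and 283, 256 and 263 CPM with DAC. The groups were far apart relative to their spread (fold 1.44, log2 0.53, SE 0.06, adjusted p = 0.00189). Cdkn1a (p21), the inhibitor of cyclin-dependent kinases, lies at chr17:29090979-29100722. It was at 240, 372 and 291 CPM in control and 357, 582 and 432 CPM with DAC, higher within each replicate although DAC replicate 1 was below control replicate 2 (fold 1.51, adjusted p = 0.0441). Plk2, a polo-like kinase that p53 induces, rose from 24.4, 34.2 and 27.7 CPM to 34.2, 56.6 and 39.1 CPM (fold 1.49, adjusted p = 0.0121). DAC replicate 1 was level with control replicate 2 at 3 digits and just above it in the values.

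Cdkn1a is also the member with a p53 response element core in a RefSeq promoter. Searched as CATGNNNNNNCATG, which reads the same on both strands, the core was found in 0.833% of the promoters of 27025 genes and in 1 of the 21 p53 targets with a promoter. The window is at chr17:29090923-29090952 on GRCm38.p6 (+ strand), with the cores in capitals, the first of them 48 bases before the upstream of 2 RefSeq starts that are 2790 bases apart.
Cdkn1a: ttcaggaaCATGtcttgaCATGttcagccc

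Other p53 targets did not pass the adjusted p. Ccng1, a cyclin that recruits phosphatase 2A, was at 482, 634 and 451 CPM in control and 624, 838 and 556 CPM with DAC (fold 1.28, adjusted p = 0.054). Mdm2, the ubiquitin ligase that degrades p53, was at 142, 189 and 142 CPM in control and 171, 264 and 174 CPM with DAC (fold 1.27, adjusted p = 0.059). Both were higher within each replicate, with replicate 2 highest in both groups. Tnfrsf10b, a death receptor, was at log2 0.38, Sesn2, a regulator of mTORC1, at 0.40, Btg2, an antiproliferative gene, at 0.70 and Phlda3, an inhibitor of AKT, at 0.42. Of the 25, Sesn1 and Ddb2 had negative log2 fold changes, -0.17 and -0.08, under each of the 3 scalings. Of the list, 7 members were called with the filter at 10 counts and 16 in the fit of the 6 libraries.

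Feedback genes of ERK signaling rose in part. Of 15 tested, 7 were higher at an unadjusted p under 0.05 (46.7%, against 6.01% of all genes) and 0 lower. The median log2 fold change was 0.15, and 3 passed the adjusted p, against 0.18% of all genes. In the fit of the 6 libraries 6 were called higher and 2 lower, where 3.29% and 2.4% of all genes were. The 2 lower genes were Egr1, an immediate early factor, and Ier3. In the fit of 12 libraries these were at log2 -0.42 and -0.20 (unadjusted p = 0.243 and 0.317). Spry4, an inhibitor of receptor tyrosine kinase signaling, was at 5.15, 6.32 and 5.55 CPM in control and 9.69, 15.6 and 7.72 CPM with DAC (fold 1.88, adjusted p = 0.0344). Etv5, an ETS transcription factor, was at 17.2, 23.8 and 17.1 CPM in control and 24.9, 58.2 and 25.5 CPM with DAC (fold 1.77, adjusted p = 0.0344). In both, the groups did not overlap and DAC replicate 2 was far above the other DAC libraries. Ccnd1, cyclin D1, lies at chr7:144929931-144939831 and was at 233, 452 and 273 CPM in control and 332, 759 and 392 CPM with DAC (fold 1.51, adjusted p = 0.0344). Replicate 2 was high in both groups, which therefore overlapped, and the gene overlaps LTO1. Spry2, Dusp6, Etv1 and Etv4 were at log2 0.52, 0.37, 0.32 and 0.72, with adjusted p between 0.144 and 0.459. Dusp15, a phosphatase of the list, was at 0.138, 0.0430 and 0.770 CPM in control and 0.207, 0.191 and 0.450 CPM with DAC, with no direction shared by the replicates (log2 -0.04, adjusted p = 0.99).

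The remaining genes that rose have varied roles. Lgals3, galectin 3, was at 78.2, 248 and 100 CPM in control and 118, 443 and 146 CPM with DAC (fold 1.58, adjusted p = 0.0344). Anxa1, a phospholipid-binding protein that dampens inflammation, was at 143, 219 and 196 CPM in control and 195, 366 and 238 CPM with DAC (fold 1.4, adjusted p = 0.0344). Serpinb9b, a serine protease inhibitor, was at 1.93, 7.36 and 2.41 CPM in control and 2.48, 14.6 and 4.08 CPM with DAC (fold 1.71, adjusted p = 0.0441). All 3 were highest in replicate 2 in both groups and overlapped between groups. The Serpinb9 family has near copies, and the gene overlaps Gm36099.

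Ctsh, a lysosomal cysteine protease, went from 6.95, 7.27 and 6.27 CPM to 10.8, 13.5 and 9.78 CPM (fold 1.67, adjusted p = 0.0455). Slc19a2, a thiamine transporter, had the smallest fold of the 21 genes, from 42.6, 48.1 and 42.1 CPM to 55.6, 64.0 and 49.3 CPM (fold 1.27, adjusted p = 0.0441). In both, the lowest DAC library was above the highest control library. The same held for Fam212b (fold 1.51), Btbd19 (1.43), 9030617O03Rik (1.68) and the imprinted Mest (1.29), with adjusted p of 0.0196, 0.0441, 0.0068 and 0.0441. Of these, Btbd19 overlaps Tctex1d4, 9030617O03Rik overlaps Gm8482, and Mest overlaps Mir335 and Copg2.

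Imprinted genes, of which 1 allele carries methylation, were mostly not expressed: 13 of 34 were tested and 18 had no fit. At an unadjusted p under 0.05, 4 were higher (30.8%, against 6.01% of all genes) and 0 lower, with a median log2 fold change of 0.02. Mest was at 55.3, 63.4 and 58.8 CPM in control and 70.8, 90.3 and 69.1 CPM with DAC. Kcnq1ot1 and Airn, long non-coding RNAs that silence their neighbors from the unmethylated allele, were at log2 0.57 and 0.66, and Igf2r, the gene that Airn overlaps, was at 0.16. None of the 3 passed an adjusted p of 0.05 (0.275, 0.465 and 0.448). H19 ranged from 0.215 to 10.7 CPM among control libraries (log2 -0.24, unadjusted p = 0.397).

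None of the listed germline genes, known to be silenced by promoter methylation, that had a fit passed the adjusted p. Hormad2, a meiotic gene outside the list, is described below with the genes of low level. Of 38 listed genes, 27 had too few counts for a fit, 7 were of low level and 4 were tested. Of the 4, 0 were higher or lower at an unadjusted p under 0.05. Of the 11 in the fit with at least 10 counts, 0 passed the adjusted p with edgeR's quasi-likelihood test, DESeq2 or limma voom, and 1 had an unadjusted p under 0.05. Dazl, a marker of germ cells, had at most 0.043 CPM in the 6 libraries, or 1 count. That gene, Slc25a31, had 2, 0 and 0 counts in control and 12, 0 and 6 with DAC (unadjusted p = 0.0394), and Tex19.1 had 3, 0 and 2 in control and 7, 3 and 6 with DAC (unadjusted p = 0.082). Of 15 tested tumor suppressors known for promoter methylation, 1 was higher (Rassf1, log2 0.19) and 1 lower (Cdkn1b, -0.15) at an unadjusted p under 0.05. Each was 6.67% of the list, against 6.01% of all genes higher and 4.04% lower. The median was -0.01 and became 0.01 under library totals.

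Nearly all listed genes of mitosis and of DNA replication had small negative fold changes, while Ccnd1 and Ccng1, given above, were higher. Of 30 mitosis genes, all 30 had a negative log2 fold change under each of the 3 scalings, 27 were lower in all 3 replicates, and 16 (53.3%) were lower at an unadjusted p under 0.05 against 4.04% of all genes. The median log2 fold change was -0.18. Top2a, the topoisomerase of mitotic chromosomes, was at 838, 791 and 754 CPM in control and 743, 652 and 595 CPM with DAC (log2 -0.26, SE 0.09, adjusted p = 0.282). Mki67, the proliferation marker, was at 544, 484 and 508 CPM in control and 466, 445 and 397 CPM with DAC (log2 -0.23, SE 0.08, adjusted p = 0.293). In both, all DAC libraries were below all control libraries. Bub1b, of the spindle checkpoint, had the lowest p of the list (log2 -0.21, unadjusted p = 0.00164, adjusted p = 0.156), followed by Cenpf at -0.24, Cdc25b at -0.22 and Ccna2 (cyclin A2) at -0.21. No member passed the adjusted p in the fit of 12 libraries with edgeR's quasi-likelihood test, DESeq2 or limma voom, and 17 did with edgeR in the fit of the 6 libraries. Without DAC replicate 3 the count of 16 became 5, without control replicate 1 it became 6 and without control replicate 2 it became 9. In RNA from whole cultures, fewer cells in a phase and less RNA per cell cannot be told apart. By flow cytometry, the paper reports that the share of cells in G2/M did not differ significantly between treatments.

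Of 34 genes of DNA replication and S phase, 32 had a negative log2 fold change and 11 were lower (32.4%, against 4.04% of all genes) at an unadjusted p under 0.05, with a median of -0.13. Prim2, a primase subunit, was lowest in p (log2 -0.24, adjusted p = 0.23). Pcna, the sliding clamp, was at 435, 462 and 439 CPM in control and 407, 405 and 379 CPM with DAC (log2 -0.17), and Cdc45 and Mcm7 of the replicative helicase were at -0.20 and -0.18. The count of 11 became 3 without control replicate 1, 1 without control replicate 2 and 2 without DAC replicate 3. Genes of the DNA damage response and adduct repair gave no call on the higher side. Of 29 tested, 0 were higher and 6 lower (20.7%, against 4.04% of all genes) at an unadjusted p under 0.05, with a median of -0.11. The 6 were Spidr, Msh6, Blm, Rad51c, Fanci and Brca2, with log2 fold changes between -0.34 and -0.14.

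**Figure D3:**
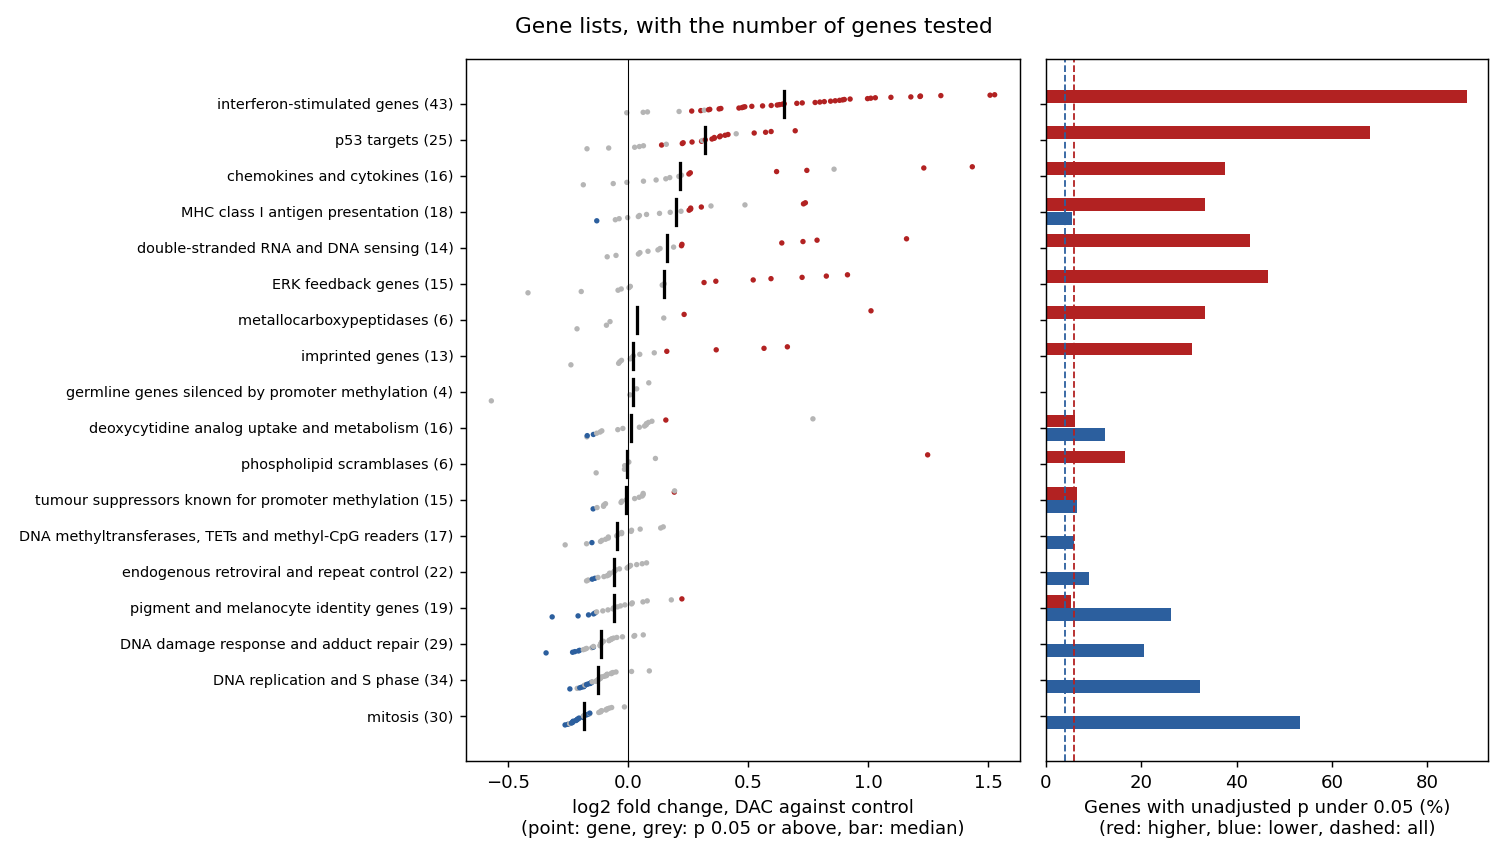
The left panel shows the log2 fold change of every tested gene of 18 lists, colored red or blue where the unadjusted p was under 0.05, with a bar at the median of each list. The right panel shows the percent of each list that was higher (red) or lower (blue) at that p, next to dashed lines for all genes tested at 6.01% and 4.04%. Interferon-stimulated genes (88.4%) and p53 targets (68%) lie farthest to the higher side, and mitosis (53.3%) to the lower.

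The target of the drug and the enzymes that activate it changed little at the RNA level. Dnmt1 was at 383, 436 and 355 CPM in control and 353, 397 and 337 CPM with DAC, lower in each replicate (log2 -0.11, unadjusted p = 0.0659). Dnmt3a and Dnmt3b were at log2 -0.05 and -0.08. Of 17 DNA methyltransferases, TETs and methyl-CpG readers tested, 0 were higher and 1 was lower at an unadjusted p under 0.05, with a median of -0.05. The share lower was 5.88%, against 4.04% of all genes. The gene that was lower was Uhrf1 (log2 -0.15), which brings DNMT1 to replicating DNA. Of 16 genes of deoxycytidine analog uptake and metabolism, 1 was higher (Nme2, log2 0.16) and 2 were lower (Rrm1, -0.17, and Dut, -0.14), with a median of 0.01. The shares were 6.25% higher and 12.5% lower, against 6.01% and 4.04% of all genes. Dck, the kinase that activates DAC, was at -0.11 (unadjusted p = 0.222), and Cda, the deaminase that inactivates it, was at 0.644, 0.731 and 0.719 CPM in control and 0.869, 1.34 and 1.39 CPM with DAC (unadjusted p = 0.101). Of 22 genes that control endogenous retroviruses and repeats, 0 were higher and 2 were lower (9.09%, against 4.04% of all genes). These were Cbx1 (log2 -0.15) and Atrx (-0.14), and the median of the list was -0.06.

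Pigment and melanocyte genes had no common direction over the replicates. Of 19 tested, 1 was higher (5.26%, against 6.01% of all genes) and 5 were lower (26.3%, against 4.04%) at an unadjusted p under 0.05, with a median log2 fold change of -0.06. The median within replicates 1, 2 and 3 was -0.0666, -0.126 and 0.00632. Mitf, the master factor of the lineage, was at 440, 344 and 338 CPM in control and 405, 312 and 301 CPM with DAC (log2 -0.14, adjusted p = 0.389). It was lower in each replicate, but the groups overlapped. Dct, Slc24a5 and Rab27a, of melanin synthesis and melanosome transport, were at -0.16, -0.14 and -0.21, and Oca2, a melanosome channel, was at 0.22 (adjusted p = 0.2). The remaining lower gene was Bace2, described below, at -0.32 with the lowest adjusted p of the list (0.088). DESeq2 called 1 member of the list lower and 0 higher.

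No gene passed the adjusted p of 0.05 on the lower side with edgeR's quasi-likelihood test, where 470 had an unadjusted p under 0.05. DESeq2 called 7 genes lower and 76 higher, and limma voom 0 lower and 17 higher. With the filter at 10 counts over the 12 libraries, 1 of the 49 genes called was lower, Clvs1, and in the fit of the 6 libraries 279 were. Clvs1 (clavesin 1), of endosome traffic, was at 56.4, 49.8 and 51.8 CPM in control and 43.3, 30.8 and 41.0 CPM with DAC. Its groups did not overlap (log2 -0.46, SE 0.09, adjusted p = 0.059). Bace2, a protease that cleaves PMEL in melanosomes, was at 319, 194 and 251 CPM in control and 274, 141 and 209 CPM with DAC, lower in each replicate with overlapping groups (log2 -0.32, adjusted p = 0.088). Ncam1, an adhesion molecule, Aspm, of the spindle pole, and Igsf3 were at -0.32, -0.29 and -0.28, with adjusted p of 0.0921, 0.107 and 0.109.

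Among genes lower in all 3 replicates with an unadjusted p under 0.05, the largest negative fold changes were in genes of a few CPM or less. Tgfa, a ligand of the EGF receptor, was at 1.38, 1.12 and 1.13 CPM in control and 0.290, 0.957 and 0.562 CPM with DAC (log2 -1.08, unadjusted p = 0.0134, adjusted p = 0.335). Cdh13, a cadherin anchored in the membrane, was at 1.20, 2.02 and 0.822 CPM in control and 0.621, 0.638 and 0.712 CPM with DAC (log2 -1.03, adjusted p = 0.347). In both, all DAC libraries were below all control libraries. 5730508B09Rik, Mss51 and Pcdhga3, a protocadherin whose cluster shares exons, were at -0.68, -0.66 and -0.75.

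Below the level filter, 2878 genes with at least 10 counts over the 12 libraries were tested, and the direction was again mostly higher. At an unadjusted p under 0.05, 116 were higher (4.03%) and 22 lower (0.764%). The 116 became 67 without control replicate 2, 71 without DAC replicate 3, 73 in the fit of the 6 libraries and 76 without a filter. DESeq2 gave 44 higher and 7 lower. None passed the adjusted p with edgeR's quasi-likelihood test, DESeq2 or limma voom in the fit of 12 libraries, where with edgeR the lowest was 0.134. In the fit of the 6 libraries, 5 did (0.174%): Ace, 9530082P21Rik, Klhdc7a, A530050N04Rik and Mnda. The 10 genes with the lowest p were all higher with DAC.

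Ces2g, a carboxylesterase, had 0 counts in the 3 control libraries and 3, 5 and 5 with DAC. Hormad2, a meiotic chromosome protein, had 0, 1 and 0 counts in control and 4, 6 and 6 with DAC. Ace, angiotensin-converting enzyme, had 8, 3 and 2 counts in control and 18, 12 and 19 with DAC. In these 3 genes no DAC library fell into the control range. Per2, of the circadian clock, had 3, 5 and 11 counts in control and 16, 13 and 26 with DAC. Klhdc7a had 2, 0 and 1 counts in control and 7, 7 and 14 with DAC, and Matk, a kinase that restrains SRC, had 6, 5 and 7 in control and 17, 12 and 20 with DAC. These 3 did not overlap either, nor did 9530082P21Rik, A530050N04Rik and Sec14l5. Mnda, an interferon-inducible nuclear protein, had 2, 1 and 5 counts in control and 4, 5 and 36 with DAC, most of them in replicate 3, and its groups overlapped.

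A shift of barely expressed genes was also seen when levels were set in libraries outside the comparison. The 8581 genes with 0 counts in the 3 SFN libraries summed to 15.59, 14.33 and 17.62 CPM in control and 18.22, 21.76 and 20.94 CPM with DAC. All DAC libraries were above all control libraries, and the log2 ratio within replicates was 0.224, 0.603 and 0.249, with a mean of 0.36. The exact permutation test over the 6 libraries gave p = 0.1 (two-sided), the smallest that 3 against 3 allow. The sums rest on 333 to 343 counts per library in control and 341 to 559 with DAC. The mean ratio was smaller at higher levels: 0.28 for genes over 0 to 0.1 CPM in SFN, 0.24 from 0.1 to 1 CPM, 0.07 from 1 to 10 CPM, and values near 0 above. With genes chosen instead for 0 counts in the 3 DAC+SFN libraries, whose cells also received DAC, the ratio was 0.11, and the higher classes gave 0.27, 0.19 and 0.05.

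**Figure D4:**
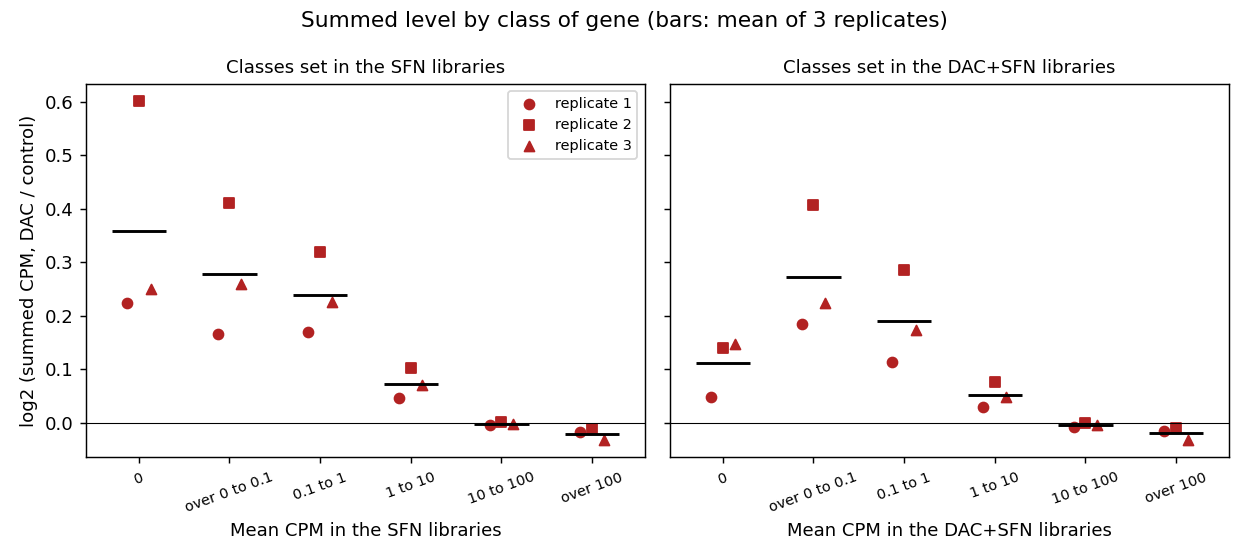
Log2 ratio of the summed CPM of DAC against control in each replicate (symbols) and their mean (bars), for classes of genes by their mean CPM in the SFN libraries (left) or the DAC+SFN libraries (right). All 3 replicates were above 0 in the 4 classes up to 10 CPM in both panels, and the class at 0 counts averaged 0.36 on the left and 0.11 on the right.

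The number of genes with a count was compared at equal depth. At an equal depth of 15880957 counts, 14065.1, 13884.6 and 14259.3 genes were expected to have at least 1 count in control replicates 1 to 3, and 14237.1, 14341.0 and 14551.7 with DAC. The difference was 172.0, 456.4 and 292.4 genes, or 306.9 ± 142.8 (SD, n = 3), and DAC replicate 1 was below control replicate 3 (exact permutation test, p = 0.2, two-sided). For at least 5 counts the mean difference was 157.6 genes. There were 51 genes at 0 in all control libraries with at least 1 count in all DAC libraries, of which 9 had at least 2 counts in each and the highest count was 7. In the opposite direction there were 9 such genes.

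The genes were also described by the CpG content of their promoters. Of the 11638 genes, 9366 (80.5%) had a promoter in the RefSeq table, and a gene with several starts was given its promoter of highest CpG ratio. The share higher at an unadjusted p under 0.05 was 17.2% of 395 genes with a ratio of observed to expected CpG under 0.25, 11.8% of 868 genes from 0.25 to 0.5, 6.57% of 2528 genes from 0.5 to 0.75, and 3.89% of 5575 genes over 0.75. The share that was lower ran the other way, from 1.77% through 2.65% and 3.6% to 4.54%. That order was not kept within the lower levels, where the share lower was 1.53%, 1.18%, 0.457% and 0.719% up to 3 CPM and 1.01%, 2.03%, 1.44% and 1.91% from 3 to 10 CPM. Median log2 fold changes were 0.10, 0.05, 0.01 and -0.01. The levels differed too, with median CPM of 6.94, 14.2, 33.0 and 47.6. Within each of 5 ranges of level, the share higher was above in the lowest CpG class than in the highest, for example 21.2% against 6.14% from 3 to 10 CPM and 18.2% against 2.95% over 100 CPM. Without the genes of the lists, the shares were 14.6%, 10.3%, 5.87% and 3.68%. On top of SFN they were 15.4%, 13.5%, 9.85% and 8.11%. Genes are not independent replicates, and no test was made. For the 21 genes, 15 (71.4%) had a promoter, so no share is given for them.

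**Figure D5:**
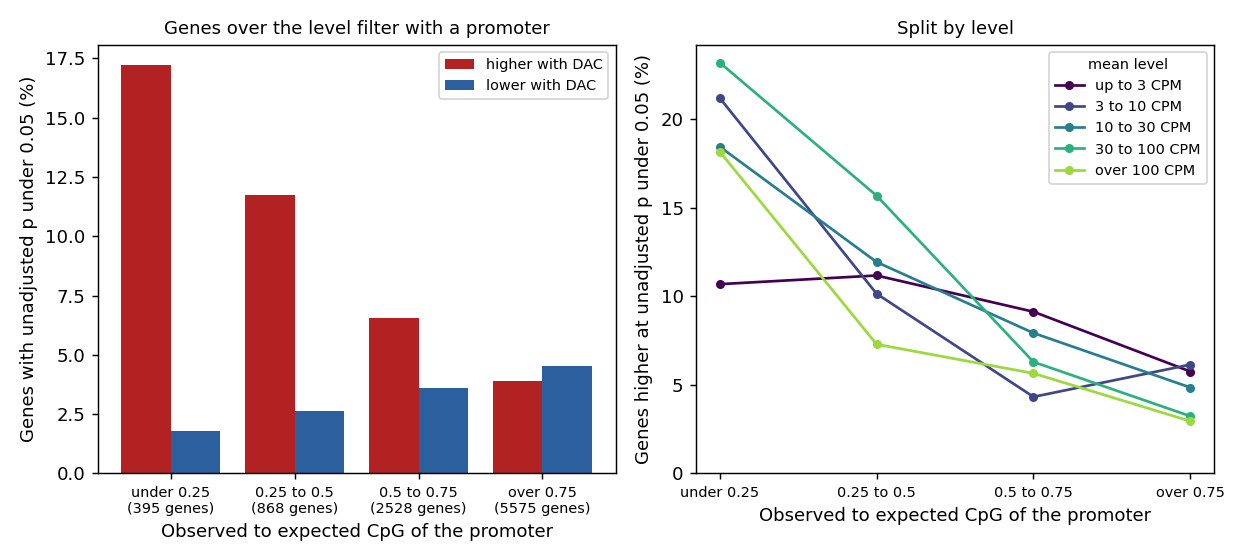
Left, percent of genes higher (red) or lower (blue) with DAC at an unadjusted p under 0.05, by the observed to expected CpG ratio of the promoter, with the number of genes under each class. Right, the percent higher split by mean level; it is above in the class under 0.25 than in the class over 0.75 at all 5 levels.

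The same drug in other cultures, on top of SFN, gave the 21 genes the same direction at mostly smaller size. By the labels, SFN was at 0.005 µM in the SFN libraries and at 5 µM in the combination, so that DAC and the SFN dose cannot be told apart if the labels hold. The methods of the study give 5 µM for SFN alone and for the combination. With DAC+SFN against SFN, 109 genes were higher (0.937%) and 78 lower at an adjusted p under 0.05. At an unadjusted p under 0.05, 1088 were higher (9.35%) and 984 lower (8.46%). All 21 genes were higher, 8 of them at an adjusted p under 0.05 and 20 at an unadjusted p under 0.05. The exception was Anxa1, at log2 0.14 (unadjusted p = 0.112) against 0.49 with DAC alone. The median log2 fold change of the 21 was 0.74 with DAC alone, for which they were selected, and 0.40 on top of SFN. Trp53inp1 was alike in both, at 0.53 and 0.54. The difference between both changes had an unadjusted p under 0.05 for 7 of the 21 and for 683 genes in all. Of the 11638 genes, 0 passed the adjusted p of the interaction term (lowest 0.748 with edgeR, 0 also with DESeq2 and limma voom). In these fits no gene was shown to respond differently, while 1 gene passed without a filter.

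The lists were also counted on top of SFN. No test by list compared these counts with those of DAC alone. Of 43 interferon-stimulated genes, 37 were higher at an unadjusted p under 0.05 and 13 at an adjusted p under 0.05, with a median log2 fold change of 0.76. Of 25 p53 targets, 20 were higher at an unadjusted p and 5 at an adjusted p, and of 30 mitosis genes, 29 were lower at an unadjusted p and 6 at an adjusted p. Of 34 genes of DNA replication, 31 were lower at an unadjusted p and 7 at an adjusted p. Of all 11638 genes, 984 (8.46%) were lower at an unadjusted p and 78 at an adjusted p. The pigment genes had 2 higher and 2 lower at an unadjusted p, the tumor suppressors 3 higher and 0 lower, and the DNA methyltransferases, TETs and methyl-CpG readers 3 higher and 2 lower. The genes of deoxycytidine analog metabolism had 0 higher and 8 lower, with a median log2 fold change of -0.12. Ccl5 was at log2 0.73 there (adjusted p = 0.0533), Lif at 0.63 (adjusted p = 0.0471), Cpz at 0.80 (adjusted p = 0.0116) and Ifitm3 at 0.64 (adjusted p = 0.0278).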

How the data were processed

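The authors deposited raw counts, whole numbers of reads per gene, for 12 libraries made with a stranded poly(A) kit from B16F10 RNA and sequenced as single reads. Per the labels and methods, the authors used FastQC 0.11.7, Trimmomatic 0.38, TopHat2 2.1.1 and htseq on mm10 with uniquely aligned reads. The annotation and the strand setting of the counting are not given in the sources used here. Library numbers in the labels run with the replicate number, and no batch is named there. The labels and the methods of the study also give different DMSO and SFN doses.

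From the counts, genes that reached 1 CPM in 3 or more libraries were tested with edgeR 4.0.16 (R 4.3.3, TMM factors, glmQLFit and glmQLFTest). All 12 libraries were in the fit, with the replicate number as a block. The study corrected for batch but does not state what its batch was. Same-numbered control and DAC libraries correlated in their deviations from group means (r = 0.614, 0.727 and 0.732), and all 18 same-numbered pairs of libraries lay between 0.270 and 0.733. A gene was called at a Benjamini-Hochberg adjusted p under 0.05. Standard errors were derived from the log2 fold change and the root of its F statistic, and fold changes used a prior count of 0.125. Genes of low level had at least 10 counts over the 12 libraries but failed the filter. DESeq2 1.42.0 and limma 3.58.1 (voom) were alternatives. Tests were checked on simulated data. Exact permutation tests used scipy 1.17.1, and figures matplotlib 3.10.9. No 2 replicates agreed within sampling noise.

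Named are all called genes, the 5 lower genes with the smallest p and the 5 with the largest fold among those lower in all 3 replicates, the 10 genes of low level with the smallest p, list members that define a list or had an unadjusted p under 0.05, and Ccl5, Dusp15 and Il33. Irf3, H19, Egr1, Ier3, Tex19.1, H2-K1, Sesn1, Ddb2 and the other list members named above that p were chosen after their values were seen. The comparison and the gene lists were chosen with earlier results of these data known. Promoters are from RefSeq on GRCm38.p6, and a gene without an entry was left out.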

Additional observations from a re-analysis of the deposited data

How the results depend on the processing

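The 21 genes kept their direction in the fits that give values per gene, which leave out the fits without an SFN or DAC+SFN library and glmTreat. The number of genes called did not hold. The counts in order are of genes called (main 21) and of those over 2-fold (main 4). They were 83 and 11 with DESeq2, 33 and 9 with edgeR's version 4 fit, 45 and 10 with library totals, 169 and 24 without a filter, 49 and 10 with at least 10 counts over the 12 libraries, and 662 and 24 with only the 6 libraries compared. Limma voom left 2 genes over 2-fold, and glmTreat at 2-fold left 0. With edgeR's robust fit the counts were 16 and 3, and Ifitm3, Etv5, Ccnd1, Cdkn1a, Ccl5 and Lgals3 were not called. Library totals gave 306 genes lower at an unadjusted p. Without a filter, 486 genes were called on top of SFN and 1 for the interaction, and DESeq2 called 388 on top of SFN (main 187).

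Without the replicate block, 0 genes were called and 0 were over 2-fold, 199 were higher and 131 lower at an unadjusted p, and 0 were called on top of SFN. The unadjusted counts were then 3 for interferon-stimulated genes and 6 each for p53 targets, mitosis and DNA replication. With the 6 libraries and the block, 1226 were higher and 1093 lower, 25 mitosis and 23 DNA replication genes were lower, 5 genes of low level were called, and 1221 were called on top of SFN. With the 6 libraries and no block, 0 were called, 200 were higher and 138 lower, and the lists gave 0, 6, 9 and 2.

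Leaving out 1 library gave 0 to 101 called genes, 0 to 6 over 2-fold, 395 to 899 higher and 207 to 595 lower. It gave 13 to 40 interferon-stimulated genes, 14 to 20 p53 targets, 5 to 20 mitosis and 1 to 16 DNA replication genes, and 0 to 700 called on top of SFN. There the count was 2 without SFN replicate 1 or DAC+SFN replicate 1, 0 without SFN replicate 3, 80 without DAC+SFN replicate 2 and 700 without DAC+SFN replicate 3. The summed ratio of genes at 0 counts ran from 0.237 to 0.426 and the gain in genes detected from 232.2 to 374.4. That ratio was 0.112 for genes at 0 in DAC+SFN, and the gain 157.6 at 5 counts. The cause of these shifts was not tested.

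The filter at 10 counts over the 12 libraries, the choice of genes at 0 in DAC+SFN, the 6 libraries without the block, and leaving out each SFN or DAC+SFN library for the count of 21 were chosen after seeing the data. Requiring 10 counts in every library left no gene of low level. Depth limits low genes most: the median standard error was 0.285 up to 3 CPM and 0.061 over 100 CPM.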

Other observations

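With the filter at 10 counts over the 12 libraries, 48 genes were higher at an adjusted p under 0.05, and genes outside the lists were among them. The following were chosen after their values were seen. Tmem179 had a log2 fold change of 1.20 (adjusted p = 0.0277), Nppb, the precursor of brain natriuretic peptide, 0.70 (adjusted p = 0.037), Ccdc80, a matrix protein, 0.68 (adjusted p = 0.0313) and the histone gene Hist1h2bc 0.79 (adjusted p = 0.0423). Ak1, adenylate kinase 1, was at 0.46 (adjusted p = 0.0235).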
